A study of Oryctolagus cuniculus with 9 samples.

Results

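Primary rabbit parathyroid cells pretreated with gallic acid and then exposed to hypoxia and reoxygenation (GA+H/R) were compared with cells that went through hypoxia and reoxygenation without it (H/R). H/R cells had 6 h of hypoxia followed by 6 h of reoxygenation, a culture model of the loss and return of blood flow to a gland. GA+H/R cells were given 1200 µM gallic acid for 24 h and then the same hypoxia and reoxygenation. The 3 libraries of each of these groups, 6 of the 9 libraries of the study, enter every test below, and the other 3, from untreated cells at day 0, appear as levels only. Of 19511 loci in the expression table, 9752 had an FPKM (fragments scaled to transcript length and sequencing yield) of at least 1 in at least 3 of the 6 libraries and were tested. Whether H/R cells spent those 24 h in plain medium is not stated in the labels, no group received gallic acid alone, and nothing says that libraries of a group came from separate animals or cultures. P-values therefore measure the spread between libraries, which may be technical.

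Gallic acid is a small plant phenol with 3 neighbouring hydroxyl groups. It scavenges radicals and binds iron, and in oxygenated culture medium such phenols also oxidise and release hydrogen peroxide. Cells meet oxidants by inducing genes of the NRF2 pathway, such as glutathione synthesis and quinone reductase, and meet a lack of oxygen through hypoxia-inducible factor (HIF), which raises glycolysis and angiogenic factors. Parathyroid chief cells secrete parathyroid hormone under control of the calcium-sensing receptor, and a dissociated gland also holds fibroblasts, endothelial cells and macrophages, of which fibroblasts often outgrow the others in culture.

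The libraries differed first of all in scale. The sum of FPKM over all loci averaged 744230 ± 12250 among the H/R libraries and 498124 ± 26670 among the GA+H/R libraries (SD, n = 3 each), with all 3 GA+H/R sums under all 3 H/R sums (exact permutation test, two-sided p = 0.1, the smallest that 3 against 3 allows). Each library was therefore rescaled by its median ratio to the mean of the 6, so that the median locus had the same level in all of them. Levels below are in these scaled FPKM, given in the order of libraries 1, 2 and 3, and a log2 change is the difference of group means of log2(scaled FPKM + 1), GA+H/R minus H/R, with its standard error (SE). "Rose" and "fell" mean an adjusted p under 0.05 on this scale, relative to the median locus. The scaling added about 0.62 to the log2 change of a well expressed locus and less to that of a locus at a few FPKM, where the added 1 weighs more.

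Replicate libraries lay close together. The median coefficient of variation was 6.92% for H/R and 9.29% for GA+H/R over the 8538 loci that reached an FPKM of 1 in each of the 6 libraries, and 2.06% and 2.52% over the 482 loci at 100 or more. Transcripts that define a parathyroid chief cell were near 0. PTH, the hormone itself, was at 0.0110, 0.0167 and 0.0305 scaled FPKM in H/R and 0.00967, 0 and 0.0542 in GA+H/R, CHGA, a protein of secretory granules, was at 0.256, 0.305 and 0.0848 and at 0 in all 3, and no locus carried the name CASR (the calcium-sensing receptor) or GCM2 (the transcription factor of the gland). Of 9 chief cell markers in the table, 8 were under 1 in all 6 libraries. Fibroblast markers summed to 16070 to 16130 in H/R and 8090 to 8242 in GA+H/R, of which COL1A1, COL1A2 and COL3A1 made up 98.4% and 96.8%. The other 9 markers in the table summed to 245.8 to 256.3 and 253.6 to 263, which overlapped, a sum added after seeing the data. Most of this sum came from DCN, FAP and PDPN, with means of 103.4, 65.6 and 55.4 in H/R and 93.3, 78.7 and 69.3 in GA+H/R. It therefore says little of the other members. DCN, PDGFRB, POSTN and PDGFRA were lower in GA+H/R without overlap, and FAP, PDPN and THY1 higher without overlap. Smooth muscle and pericyte markers summed to 2072 to 2090 and 1639 to 1667, and macrophage markers to 14.63 to 14.98 and 139 to 148. Epithelial and lymphocyte markers summed to under 1 in each of the 6 libraries, and markers of thyroid, nerve sheath and red cells likewise. In RNA from whole cultures, fewer cells of a type and less RNA per cell cannot be told apart.

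Gallic acid pretreatment went with changes in a large share of the tested loci. Of 9752, 4070 (41.7%) were called by limma, 1958 (20.1%) higher and 2112 (21.7%) lower, and the 3 GA+H/R values lay wholly above or below the 3 H/R values at 5284 loci (54.2%). Most changes were small. The median was -0.03, the middle 50% of loci lay between -0.29 and 0.24, and 93 loci rose and 143 fell by at least 1 on the log2 scale. In the FPKM as deposited, 2.78% were called higher and 72.3% lower with a median of -0.54, and for 537 loci the 2 scales gave calls of opposite direction. With no filter on low values, 9.69% of 18239 loci were called higher and 11.1% lower. All counts of genes below are to be read against these shares. The lists were chosen with earlier results of these data known, so the counts are descriptive. Of the tested loci, 377 reached the filter in the H/R libraries only, of which 150 were called lower, and 22 in the GA+H/R libraries only, of which 22 were called higher. Such loci entered the test through the group in which they were at 1 FPKM or more. Where a list below has more than 1 of them, or where one is named, its count is also given without them, which was added after seeing the data. The lists of antioxidant, p53, immediate early, matrix receptor, citrate cycle, lipid, chromatin-modifying, calcium, fibroblast and large housekeeping genes each hold 1 that passed through H/R only, and none of these lists loses more than 1 call without it.

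**Figure D1:**
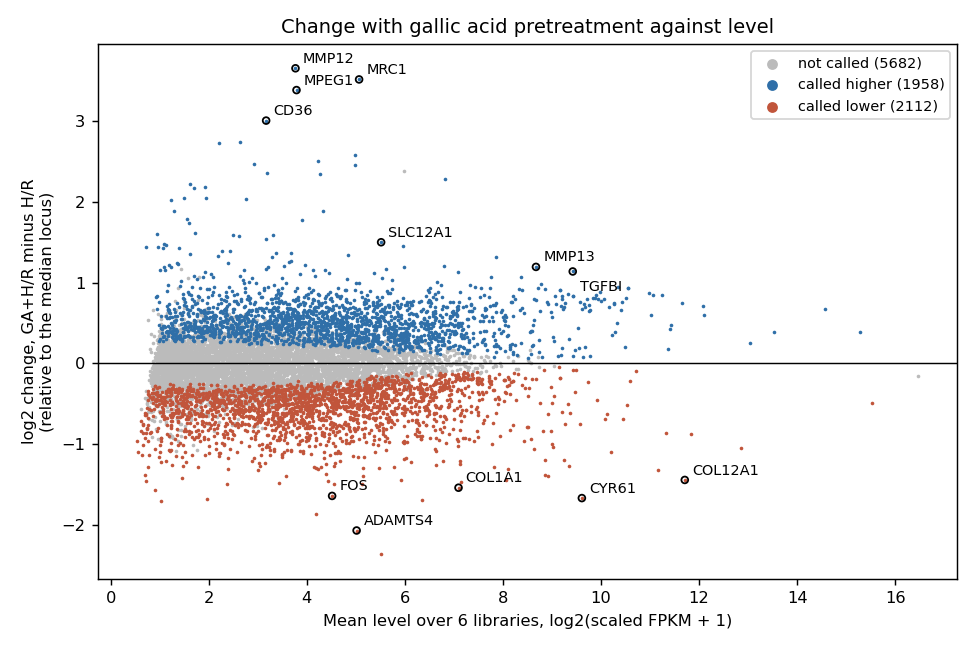
Log2 change (GA+H/R minus H/R, relative to the median locus) against the mean level, log2(scaled FPKM + 1) over the 6 libraries, with 1 point for each of 9752 tested loci. Loci called higher (1958) and lower (2112) are coloured. The named points show macrophage genes at the top, with SLC12A1, MMP13 and TGFBI also higher in GA+H/R. CYR61, COL1A1, COL12A1, FOS and ADAMTS4 lie at the bottom.

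Housekeeping genes were also read by the size of the encoded protein. Of 37 housekeeping genes of large proteins, 0 rose and 28 fell (median -0.38), while of 36 housekeeping genes of small proteins 19 rose and 0 fell (median 0.28, or -0.31 as deposited). LRP1, a very large endocytic receptor, was at 91.1, 90.8 and 91.3 in H/R and 46.8, 45.9 and 45.2 in GA+H/R (log2 change -0.97 ± 0.04, adjusted p = 3.10e-06), and AHNAK, a giant scaffold protein, fell by 0.75. BTF3, a small partner of nascent chains, was at 291, 301 and 318 and 603, 576 and 566 (log2 change 0.94 ± 0.039, adjusted p = 2.94e-06), and HINT1, a small nucleotide hydrolase, rose by 0.72. These lists were written after the values of other lists had been seen. Many matrix genes encode large proteins and ribosomal genes small ones. What part size has in the changes of these or any other list was not tested. Of small housekeeping genes 52.8% rose, against 57.9% of antioxidant, 62.5% of respiratory chain and 48.6% of proteasome genes. Of large ones 75.7% fell, against 64.9% of splicing factors and 51.2% of histone and DNA modifying enzymes.

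**Figure D2:**
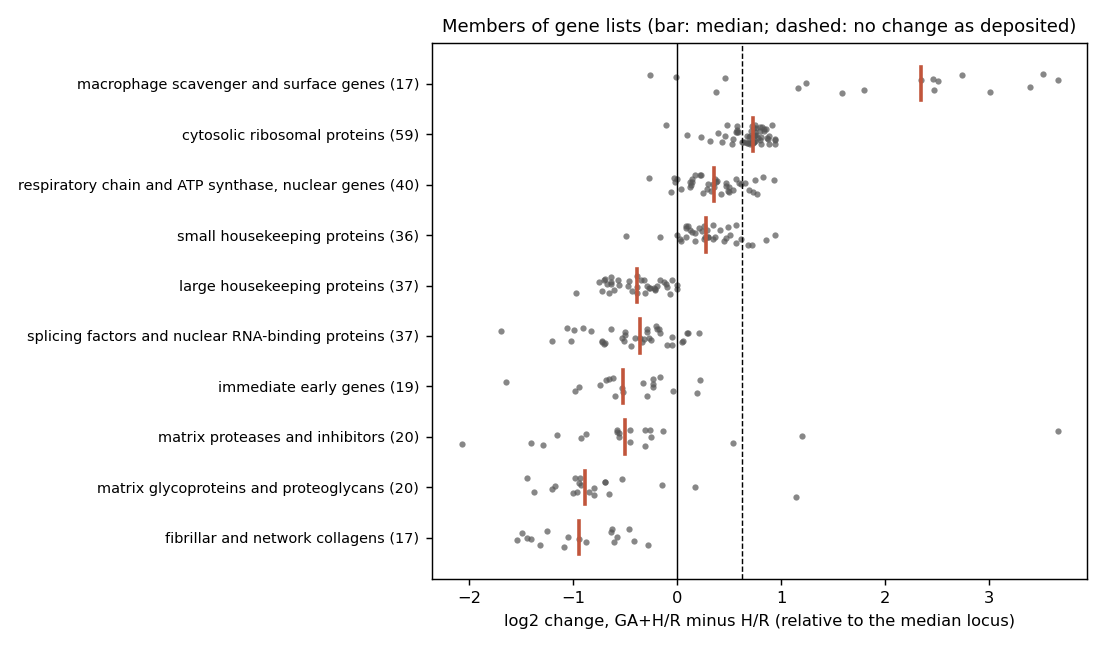
Log2 change (GA+H/R minus H/R, relative to the median locus) of each tested member of 10 gene lists, with a bar at the list's median. The solid line marks no change relative to the median locus and the dashed line, at 0.62, no change in the FPKM as deposited for a well expressed gene; macrophage genes lie mostly above both lines, ribosomal proteins around or just above the dashed line, and collagens below the solid line.

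Collagen genes fell together. Of 17 chains tested, 0 rose and 17 fell, with a median of -0.95 against -0.03 over all loci and 21.7% of loci called lower. COL15A1 passed the filter through the H/R libraries only, and the other 16 chains all fell. COL1A1, a chain of type I collagen, the main fibre of connective tissue, was at 231, 231 and 233 in H/R and 77.3, 79.7 and 79.9 in GA+H/R (log2 change -1.54 ± 0.03, adjusted p = 6.04e-08), a ratio of means of 2.94. COL1A2, the other chain of that fibre, was at 10665, 10680.3 and 10731 and 5095, 5213 and 5188 (log2 change -1.05 ± 0.009, adjusted p = 1.83e-09). The libraries of a group lay close together for both chains, and the groups were far apart. COL12A1, which coats the surface of collagen fibrils, was at 5547, 5498 and 5515 and 2011, 2021 and 2046 (log2 change -1.45 ± 0.009, adjusted p = 5.43e-10). COL5A1 and COL5A3, chains of the type V collagen that sets fibril width, fell by 1.40 and 1.49, and COL3A1, the fibre of elastic tissues, by 0.88. The basement membrane chain COL4A1 was at -0.64 (adjusted p = 0.00464, or 0.191 with the untreated libraries in the fit). The smallest fall was that of COL15A1, at -0.29 (adjusted p = 0.0483), which was not called without GA+H/R library 1 (-0.25, adjusted p = 0.103) or 3 (-0.30, adjusted p = 0.071), and in 6 of the other alternatives. In the untreated cells COL1A1 was at 322, 472 and 471 and COL12A1 at 12707, 14868 and 15657, above both treated groups. COL1A1, COL1A2 and COL3A1 make up most of the fibroblast marker sum given above. The summed level of the other markers overlapped between the groups, but most of it came from DCN, FAP and PDPN. Single members did not all overlap. PDGFRB fell (-0.80) and PDPN rose (0.32).

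Most enzymes that modify collagen fell. Of 15 tested, 14 fell and 1 rose (median -0.63). LOXL2, which cross-links collagen through oxidised lysines, was at 696, 695 and 706 in H/R and 302, 299 and 312 in GA+H/R (log2 change -1.20 ± 0.022, adjusted p = 4.57e-08), and LOX, the enzyme after which the family is named, was at 3449, 3454 and 3427 and 1926, 1900.1 and 1859 (log2 change -0.86 ± 0.014, adjusted p = 2.61e-08). Both were at less than their H/R level in every GA+H/R library. P4HA2 and P4HA3, subunits of the prolyl hydroxylase that needs iron and ascorbate to stabilise the triple helix, fell by 0.97 and 0.88, and PLOD1, a lysyl hydroxylase, by 0.87. LOXL4, another lysyl oxidase, was the member that rose, from 118, 108 and 116 to 162, 158 and 158 (log2 change 0.48 ± 0.04, adjusted p = 1.15e-04), and was at 0.48 here against -0.13 as deposited.

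Most other matrix proteins fell. Of 20 glycoproteins and proteoglycans tested, 17 fell and 2 rose (median -0.89). ELN (elastin) and POSTN (periostin) passed the filter through the H/R libraries only, and of the other 18 members 15 fell and 2 rose. FBLN5, which organises elastic fibres, was at 98.7, 94.2 and 105 in H/R and 33.3, 39.4 and 35.4 in GA+H/R (log2 change -1.44 ± 0.074, adjusted p = 9.74e-06). HSPG2 (perlecan, a basement membrane proteoglycan) was at 750.4, 754 and 728 and 290.1, 287 and 279 (log2 change -1.38 ± 0.023, adjusted p = 3.56e-08), and the laminin chain LAMB2 was at 446, 447 and 431 and 160.2, 159 and 166 (log2 change -1.44 ± 0.027, adjusted p = 5.76e-08). The GA+H/R libraries of these genes lay far below the H/R libraries. FN1 (fibronectin) was at 721, 723 and 723 and 359.5, 363 and 359 (adjusted p = 2.53e-08). TNC (tenascin C) fell by 1.20 and THBS2 (thrombospondin 2) by 1.17. DCN, the small proteoglycan decorin, was at 105, 106 and 99.3 and 98.6, 85.97 and 95.3 and did not pass (log2 change -0.15 ± 0.058, adjusted p = 0.0794), though it was called lower without GA+H/R library 1 (adjusted p = 0.0442). TGFBI, a secreted protein that binds collagen and is induced by transforming growth factor beta, went the other way, from 471, 452 and 462 to 1020.1, 1001 and 1030.1 (log2 change 1.14 ± 0.021, adjusted p = 4.57e-08, and 0.52 as deposited).

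Receptors for the matrix and the actin cytoskeleton behind them also fell in most members. Of 21 integrins and other matrix receptors, 16 fell and 2 rose (median -0.49). ITGB1, the beta chain shared by most collagen and fibronectin receptors, was at 790.0, 791 and 809.7 in H/R and 457, 458 and 502 in GA+H/R (log2 change -0.75 ± 0.038, adjusted p = 8.17e-06), ITGA5, its partner for fibronectin, fell by 0.71 and SDC1, a membrane proteoglycan, by 1.02. DDR2, a receptor tyrosine kinase for collagen, was at 299.7, 306 and 303 and 357, 362 and 361 (log2 change 0.25 ± 0.02, adjusted p = 9.48e-05; -0.37 as deposited). Of 22 actin genes, 17 fell and 2 rose (median -0.27). FLNC, a filamin that cross-links actin, fell by 0.99, the non-muscle myosin MYH9 by 0.62 and ACTA2, the smooth muscle actin of contractile fibroblasts, from 331, 338 and 336 to 179, 173 and 184 (log2 change -0.90 ± 0.029, adjusted p = 6.62e-07). TAGLN2, a small actin-binding protein, rose by 0.60, but was at -0.013 as deposited.

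Most matrix-degrading enzymes and their inhibitors fell. Of 20 proteases and inhibitors tested, 15 fell and 2 rose (median -0.504). ADAMTS4, which cuts the proteoglycan aggrecan, had the largest fall of all genes named here and was at 64.9, 61.7 and 69.3 in H/R and 12.7, 14.9 and 16.97 in GA+H/R (log2 change -2.07 ± 0.11, adjusted p = 9.74e-06). MMP9, a gelatinase, was at 16.7, 19.9 and 18.6 and 7.83, 6.89 and 4.66 (log2 change -1.40 ± 0.17, adjusted p = 6.90e-04), and MMP1, the interstitial collagenase, at 26.5, 27.5 and 26.5 and 11.9, 8.89 and 10.6 (log2 change -1.29 ± 0.11, adjusted p = 1.16e-04). In untreated cells MMP9 was at 1.03, 2.77 and 2.07 and MMP1 at 0.504, 5.38 and 3.305, under both treated groups, and ADAMTS4 was at 6.101, 13.1 and 9.87, which overlapped the GA+H/R libraries. MMP13, a further collagenase, rose from 271, 273 and 263 to 614, 602 and 634 (log2 change 1.19 ± 0.027, adjusted p = 1.14e-07) and was at 1374, 1888 and 1888 in untreated cells. Among inhibitors, TIMP1 was at 48.2, 46.2 and 44.5 and 32.996, 35.5 and 32.4 (log2 change -0.45 ± 0.062, adjusted p = 0.00125), and TIMP3 fell by 0.56, calls that were lost with the untreated libraries in the fit (adjusted p of 0.167 and 0.05002). MMP2, a gelatinase of fibroblasts, and MMP14, the membrane protease that activates it, fell by 1.15 and 0.88.

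**Figure D3:**
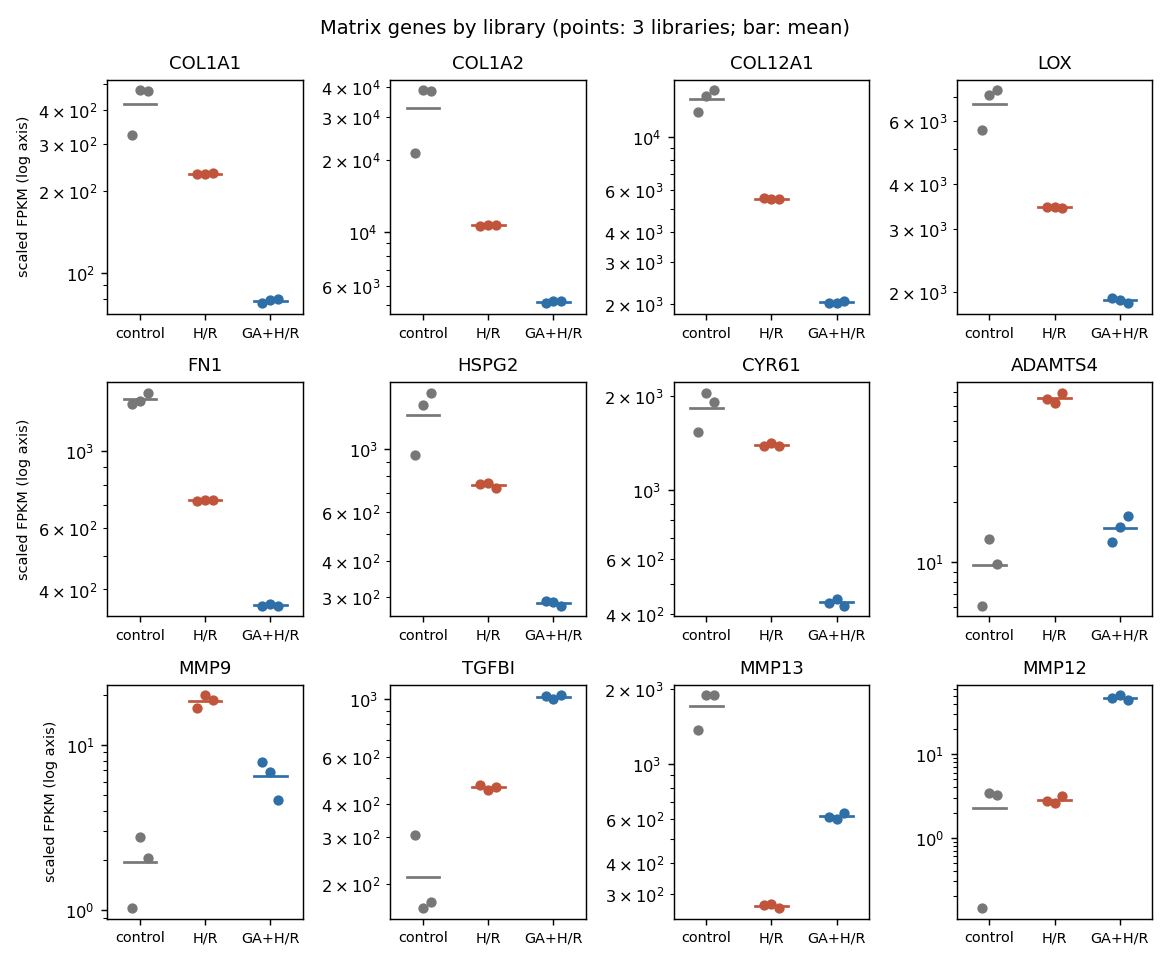
Scaled FPKM, on a log axis, of 12 matrix, protease and matricellular genes in each library, with control (untreated, day 0), H/R and GA+H/R libraries as separate point columns and a bar at each group's mean. MMP13, MMP12 and TGFBI lie higher in GA+H/R than in H/R, and the other 9 genes lower, with no overlap between these groups.

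Targets of transforming growth factor beta and of the YAP coactivator, which cells use to respond to tension and wounding, fell in many members. Of 22 tested, 11 fell and 5 rose (median -0.29). CYR61, a secreted matricellular protein, was at 1380.3, 1417 and 1379 in H/R and 436, 448 and 426 in GA+H/R (log2 change -1.67 ± 0.022, adjusted p = 1.58e-08). CTGF, its relative that promotes matrix synthesis, was at 1712, 1740.3 and 1691 and 814, 783 and 811 (log2 change -1.09 ± 0.019, adjusted p = 3.76e-08). The groups did not overlap for either gene, which the choice of the largest falls required of CYR61. LTBP1, which holds the latent growth factor in the matrix, fell by 1.001, while the growth factor TGFB1 itself (-0.11, adjusted p = 0.506) and YAP1 (-0.027, adjusted p = 0.54) did not pass. The largest rise was that of TGFBI, at 1.14 and at 0.52 as deposited, which is counted among the matrix proteins above too. ANKRD1, also a YAP target, rose by 0.57 (-0.030 as deposited; adjusted p = 0.319 with the untreated libraries in the fit) and ID1, an inhibitor of differentiation factors, by 0.51 (-0.071 as deposited).

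Immediate early genes encode transcription factors and regulators that are switched on within minutes of a mitogen or a stress. Of 19 tested, 0 rose and 11 fell (median -0.53). FOS was at 39.05, 43.1 and 36.3 in H/R and 13.6, 14.03 and 8.84 in GA+H/R (log2 change -1.64 ± 0.17, adjusted p = 3.09e-04), against 21.9, 25.7 and 17.2 in untreated cells. EGR1 was at 6.21, 7.102 and 6.88 and 2.89, 3.499 and 2.7000 (log2 change -0.94 ± 0.11, adjusted p = 5.69e-04), JUN, the partner of FOS, fell by 0.68, and DUSP1, a phosphatase that ends MAP kinase signalling, by 0.60. BTG2, an antiproliferative gene, was at 37.7, 38.3 and 39.1 and 21.6, 17.9 and 17.4 (log2 change -0.98 ± 0.09, adjusted p = 1.83e-04), and ATF3, a stress factor, fell by 0.75 in the 6 libraries, a call that was lost with the untreated libraries in the fit (adjusted p = 0.0561). MYC (-0.17, adjusted p = 0.128) and the MAP kinase feedback genes DUSP6 (-0.23, adjusted p = 0.332) and SPRY4 (0.22, adjusted p = 0.196) did not pass. Of 20 kinases and other components of the MAP kinase cascades, 1 rose and 4 fell, and the small GTPase NRAS was at 0.47 (adjusted p = 2.12e-04; -0.14 as deposited).

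Cytokine genes changed in both directions. Of 17 NF-kB targets and cytokines, 3 rose and 7 fell (median -0.12). IL6 was at 13.9, 16.5 and 17.01 in H/R and 4.17, 9.38 and 6.75 in GA+H/R (log2 change -1.17 ± 0.24, adjusted p = 0.00767), and its relative LIF at 31.5, 28.8 and 25.9 and 10.3, 14.2 and 14.4 (log2 change -1.10 ± 0.14, adjusted p = 8.68e-04). CCL2, the chemokine that draws monocytes, rose from 0.231, 0.315 and 0.285 to 3.21, 4.97 and 3.14 (log2 change 1.88 ± 0.15, adjusted p = 1.10e-04), and CXCL8, which draws neutrophils, from 14.3, 16.1 and 13.7 to 26.9, 27.2 and 26.8 (log2 change 0.84 ± 0.078, adjusted p = 2.04e-04). CCL2 was at 0.143, 0.303 and 0.279 in untreated cells, and it passed the filter through the GA+H/R libraries only; of the other 16 members 2 rose and 7 fell. TNFAIP3, an NF-kB feedback inhibitor, was at -0.41 (adjusted p = 0.0197; -0.36 and 0.0716 without H/R library 1), and IL1B, a pyrogenic cytokine, at 0.39 (adjusted p = 0.47). Of 10 interferon response genes, 0 rose and 1 fell. The call for IL6 was lost with the untreated libraries in the fit (adjusted p = 0.0578).

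Angiogenic and stromal growth factors were called at near the share over all loci. Of 17 tested, 3 rose (17.6%) and 4 fell (23.5%), against 20.1% and 21.7% of all loci. VEGFA, the main angiogenic factor, was at 9.14, 10.2 and 9.72 in H/R and 4.39, 4.5998 and 4.73 in GA+H/R (log2 change -0.94 ± 0.087, adjusted p = 1.92e-04). ANGPT1, which stabilises vessels, was at 5.5999, 6.07 and 5.295 and 8.82, 7.68 and 8.36 (log2 change 0.48 ± 0.095, adjusted p = 0.00648; -0.059 as deposited). In the insulin-like growth factor axis 6 of 13 fell and 1 rose. The receptors IGF1R and IGF2R fell by 0.92 and 0.92 and PAPPA2, a protease that frees the hormone from its binding proteins, by 1.30, whereas the binding protein IGFBP6 rose from 4.42, 3.65 and 4.49 to 8.002, 8.13 and 8.57 (log2 change 0.84 ± 0.10, adjusted p = 6.59e-04). IGF1 itself was at 0.22 (adjusted p = 0.0891).

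Among the 15 largest rises were MMP12, MRC1, MPEG1, CD36, ITGB2, VSIG4, CD163, GPNMB and STAB1, all of them known in macrophages. The largest rises were picked only among loci whose groups did not overlap. Of 17 scavenger and surface genes tested, 15 rose and 0 fell, with a median of 2.35 (1.77 as deposited), against 20.1% of all loci called higher. This list was chosen with earlier results of these data known and holds genes just named. Its count therefore describes these libraries and is not independent evidence. MRC1, the mannose receptor CD206, was at 9.03, 8.57 and 9.07 in H/R and 106, 112 and 119 in GA+H/R (log2 change 3.52 ± 0.065, adjusted p = 5.07e-08), a ratio of means of 12.6. MMP12, the macrophage elastase, was at 2.72, 2.61 and 3.19 and 47.3, 50.5 and 44.4 (log2 change 3.66 ± 0.095, adjusted p = 2.27e-07), and MPEG1, a pore-forming protein of phagosomes, at 4.04, 4.59 and 1.77 and 49.5, 40.7 and 41.3 (log2 change 3.39 ± 0.26, adjusted p = 7.14e-05). The lowest GA+H/R library lay several times above the highest H/R library for all of these. CD163, which takes up haemoglobin, was at 1.59, 3.01 and 2.17 and 17.7, 16.5 and 16.2 (log2 change 2.47 ± 0.16, adjusted p = 3.14e-05). CD36, a receptor for oxidised lipids, was at 2.54, 1.98 and 2.02 and 28.02, 19.7 and 26.6 (log2 change 3.01 ± 0.15, adjusted p = 8.02e-06), and ITGB2, the beta chain of leukocyte integrins, at 1.3004, 1.505 and 1.42 and 14.1, 17.6 and 13.7 (log2 change 2.74 ± 0.12, adjusted p = 3.49e-06).

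VSIG4, the complement receptor of tissue macrophages, was at 8.46, 6.21 and 6.09 and 38.98, 40.5 and 52.3 (log2 change 2.51 ± 0.15, adjusted p = 2.48e-05). STAB1, a scavenger receptor, was at 9.65, 7.67 and 5.72 and 42.1, 38.5 and 46.95 (log2 change 2.35 ± 0.17, adjusted p = 5.50e-05), GPNMB, a glycoprotein of phagocytes, at 12.9, 12.6 and 11.998 and 73.1, 72.9 and 73.5 (log2 change 2.46 ± 0.057, adjusted p = 1.46e-07), and CSF1R, the receptor that macrophages need to survive, at 3.06, 1.902 and 1.85 and 9.795, 7.91 and 8.48 (log2 change 1.59 ± 0.16, adjusted p = 2.95e-04). All 3 GA+H/R values again exceeded all 3 H/R values, which the choice of the largest rises required of VSIG4, STAB1 and GPNMB. MSR1, scavenger receptor A, was at 0.739, 0.748 and 0.945 and 1.23, 1.38 and 1.41 (log2 change 0.37 ± 0.10, adjusted p = 0.0186), with adjusted p of 0.094 and 0.0926 without H/R library 1 or 2. LAPTM5, a lysosomal protein of leukocytes, was at -0.012 (adjusted p = 0.864) and MERTK, a receptor for dying cells, at -0.26 (adjusted p = 0.12).

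Of 29 symbols on the list the table has 24, and 7 of these were under the filter. Of the 17 tested 1, FOLR2, a folate receptor of macrophages, passed the filter through the GA+H/R libraries only, and 14 of the other 16 rose. With no filter, 18 of the 24 rose and 0 fell, against 9.69% and 11.1% of all loci in that fit, a count added after seeing the data. In 18 of the 24, every GA+H/R library lay above every H/R library. At 54.2% of the 9752 tested loci the groups did not overlap, counting both directions and leaving out loci under the filter. A share over all loci for upward separation alone was not computed. CD14, the monocyte co-receptor for bacterial lipopolysaccharide, was at 0.121, 0.0703 and 0.0942 in H/R and 0.761, 0.771 and 0.721 in GA+H/R, and TYROBP, the adaptor of myeloid receptors, at 0.0861, 0.0447 and 0.0515 and 0.643, 0.419 and 0.312. The other 6 did not separate upward, and of these MERTK separated downward, at 4.53, 4.14 and 5.41 and 3.32, 3.84 and 4.06. CD74, the chaperone of MHC class II molecules, was at 0.0922, 0 and 0 and 0, 0 and 0, and AIF1, a calcium-binding protein of macrophages, at 0, 0.140 and 0.266 and 0.133, 0.524 and 0.162. The 24 together summed to 153 to 168 in the H/R libraries, to 537 to 559 in the GA+H/R libraries and to 123 to 168 in those of untreated cells. Untreated library 1 stood apart for several of these genes, with MRC1 at 0.418, 12.6 and 14.1 and MPEG1 at 0.121, 4.45 and 6.44 in the 3 untreated libraries. It also stood apart at genes outside this list, such as DCN (105, 373 and 380) and GAPDH (725, 1317 and 1469). At others, such as NQO1 (355, 318 and 315), it lay closer to the rest.

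**Figure D4:**
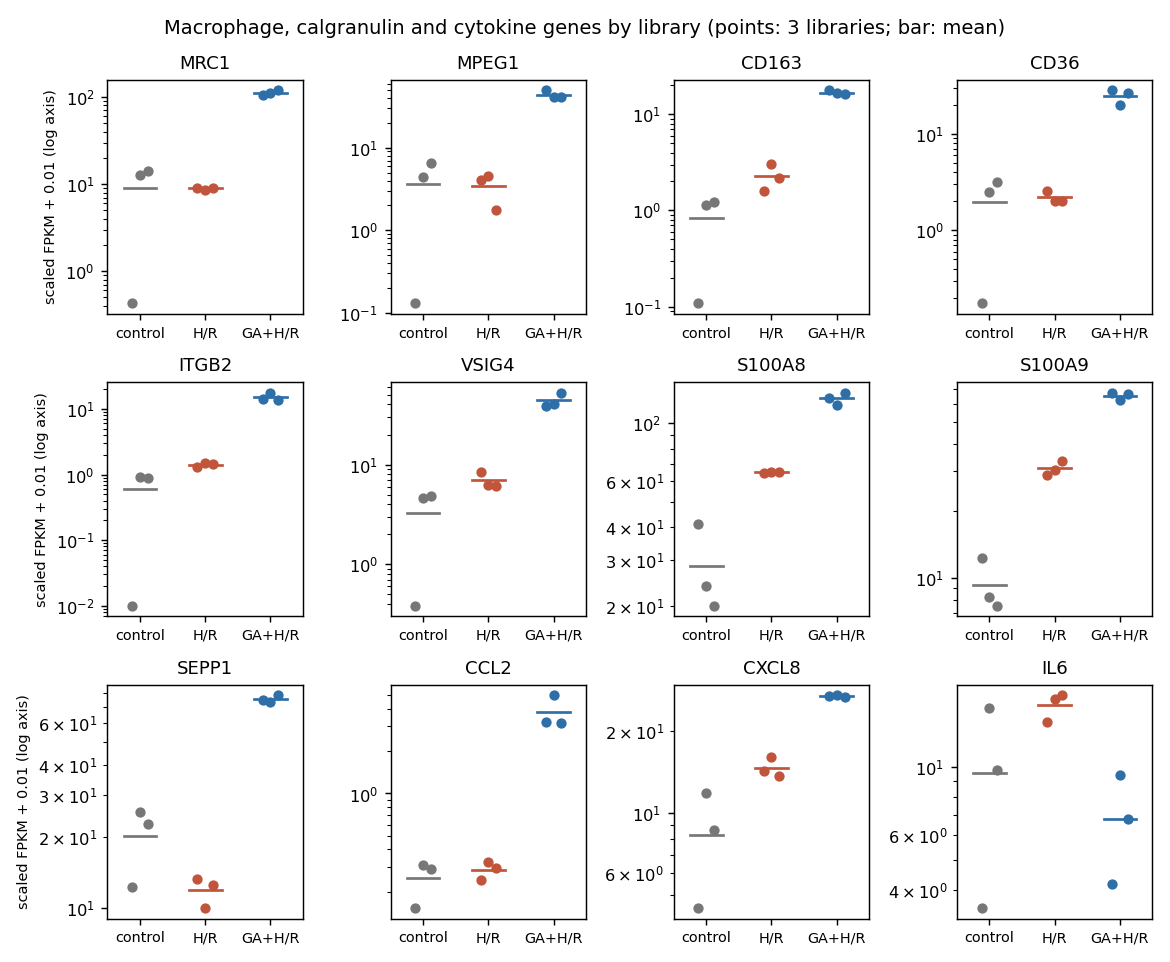
Scaled FPKM, on a log axis with 0.01 added so that values of 0 can be drawn, of 12 macrophage, calgranulin and cytokine genes in each library, with a bar at each group's mean. GA+H/R lies above H/R without overlap in every panel except that of IL6, where it lies below; the low point among the controls for MRC1, MPEG1 and CD36 is library 1.

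Other genes of phagocytes and of lipid handling rose beside them. The calgranulins S100A8, S100A9 and S100A12, calcium-binding proteins that neutrophils and monocytes release, were at 64.5, 65.2 and 65.1, 29.04, 30.4 and 33.5 and 68.9, 73.02 and 74.7 in H/R. In GA+H/R they were at 125, 118 and 131, 67.4, 62.5 and 66.5 and 165, 162 and 176 (log2 changes of 0.93, 1.06 and 1.20, adjusted p of 8.56e-06, 3.12e-05 and 2.76e-06). AOAH, an enzyme that inactivates lipopolysaccharide, was at 7.08, 6.903 and 7.19 and 23.8, 29.2 and 27.05 (log2 change 1.78 ± 0.094, adjusted p = 1.07e-05), and SEPP1, the plasma selenium carrier, at 13.3, 10.01 and 12.6 and 75.4, 73.95 and 78.5 (log2 change 2.58 ± 0.10, adjusted p = 2.55e-06). Of 17 genes of lipid uptake, storage and efflux 6 rose and 2 fell, and CD36, described above, was among those that rose. STOM, a membrane scaffold, was at 3.55, 5.43 and 3.92 and 16.1, 12.02 and 14.98 (log2 change 1.54 ± 0.16, adjusted p = 3.58e-04), SMPDL3A, a phosphodiesterase, at 2.78, 3.08 and 4.46 and 8.99, 7.35 and 10.1 (log2 change 1.15 ± 0.17, adjusted p = 0.00179), and ABCA1, the cholesterol exporter, at 1.38, 1.38 and 1.76 and 3.46, 3.03 and 3.29 (log2 change 0.77 ± 0.10, adjusted p = 0.00112). STOM and SMPDL3A were at 5.81, 15.5 and 17.6 and 5.67, 10.3 and 8.58 in untreated cells, above the H/R libraries.

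Complement genes changed in both directions. Of 8 tested, 5 fell, and VSIG4, described above, was the member that rose. With no filter on low values 4 of 18 rose and 4 fell, a count added after seeing the data. C1R, a protease that starts the classical pathway, was at 24.4, 25.5 and 26.3 in H/R and 16.2, 15.98 and 15.3 in GA+H/R (log2 change -0.65 ± 0.068, adjusted p = 3.53e-04), and its partner C1S fell by 0.61. The untested C3, the central component, was at 0.0542, 0.0510 and 0.0578 and 0.245, 0.346 and 0.336, and C5AR1, the receptor for its downstream anaphylatoxin on myeloid cells, at 0.0401, 0.0659 and 0.0244 and 0.256, 0.210 and 0.173. Fibroblast markers, 10 tested, had 5 falls and 2 rises. PDGFRB, a growth factor receptor of stromal cells, fell by 0.80, while FAP, a fibroblast surface protease, rose by 0.26 (-0.35 as deposited; adjusted p = 0.0507 without H/R library 2) and PDPN, podoplanin, by 0.32 (-0.29 as deposited; adjusted p = 0.265 with the untreated libraries in the fit).

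Many antioxidant enzymes rose relative to the median locus. Of 19 tested, 11 rose and 1 fell, with a median of 0.32 that was -0.28 as deposited. GPX1, the cytosolic glutathione peroxidase, was at 103, 105 and 106 in H/R and 174, 181 and 178 in GA+H/R (log2 change 0.76 ± 0.031, adjusted p = 3.03e-06), and remained higher as deposited (0.14). SOD2, the mitochondrial superoxide dismutase, was at 141, 131 and 136 and 176, 170.1 and 168 (log2 change 0.33 ± 0.038, adjusted p = 5.27e-04; -0.28 as deposited), and CAT, catalase, at 17.4, 15.8 and 14.7 and 21.3, 24.5 and 21.6 (log2 change 0.46 ± 0.092, adjusted p = 0.0066; -0.12 as deposited). Groups did not overlap for any of these. Thioredoxins TXN and TXN2 rose by 0.35 and 0.53 (-0.26 and -0.074 as deposited), PRDX1, a peroxiredoxin, was at 0.043 (adjusted p = 0.135), and MSRB3, which repairs oxidised methionine, fell by 0.53.

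The NRF2 targets did not move as one. Of 19 tested, 6 rose and 7 fell (median 0.065, -0.52 as deposited). The largest rise was that of FTL, a ferritin chain also counted among the iron genes below, at 0.48 (-0.14 as deposited). Genes that supply and export glutathione were among those that fell. SLC7A11, the cystine importer, was at 40.4, 44.8 and 40.4 in H/R and 23.6, 24.1 and 22.6 in GA+H/R (log2 change -0.81 ± 0.067, adjusted p = 1.16e-04), GCLC, the catalytic subunit of glutathione synthesis, at 50.01, 52.8 and 48.8 and 30.2, 30.3 and 33.3 (log2 change -0.68 ± 0.064, adjusted p = 2.14e-04), and ABCC1, an exporter of glutathione conjugates, at 317, 301 and 310.3 and 158, 155 and 149 (log2 change -1.003 ± 0.033, adjusted p = 8.53e-07). GCLM, the modifier subunit, was at 28.3, 30.6 and 32.9 and 30.9, 30.8 and 35.6 and did not pass (log2 change 0.081 ± 0.086, adjusted p = 0.483). HMOX1, haem oxygenase, was at 40.1, 36.4 and 41.4 and 25.9, 27.2 and 28.6 (log2 change -0.51 ± 0.073, adjusted p = 0.00146), against 7.08, 18.3 and 22.9 in untreated cells, and NQO1, quinone reductase, fell by 0.17 (adjusted p = 0.00412, and 0.0527 without the trend and robust settings). The call of HMOX1 was lost with the untreated libraries in the fit (adjusted p = 0.249).

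Genes of iron handling changed in both directions. Of 15 tested, 6 rose and 3 fell. FTL, the ferritin light chain, was at 2375, 2321 and 2345 in H/R and 3271, 3261 and 3273 in GA+H/R (log2 change 0.48 ± 0.01, adjusted p = 8.64e-08; -0.14 as deposited), FTH1, the heavy chain, rose by 0.39 (-0.23 as deposited), and NCOA4, which delivers ferritin to the lysosome, by 0.48 (-0.12 as deposited). TFRC, the transferrin receptor, was at 1740.4, 1789 and 1749 and 1215, 1207 and 1251 (log2 change -0.52 ± 0.018, adjusted p = 9.74e-07), and SLC11A2, the ferrous iron transporter, fell by 0.47. Ferritin and transferrin receptor mRNAs are controlled in opposite ways by iron regulatory proteins in many cells. What part these proteins had in the levels here was not tested. SLC40A1, the iron exporter, was at 3.51, 2.94 and 3.66 and 2.62, 4.24 and 3.15, which overlapped (log2 change -0.026 ± 0.15, adjusted p = 0.908).

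Genes of protein folding changed in both directions. Of 19 genes of the unfolded protein response in the endoplasmic reticulum, 2 rose and 11 fell (median -0.33). PDIA4, a disulphide isomerase, was at 129, 125 and 122 in H/R and 77.1, 76.8 and 74.3 in GA+H/R (log2 change -0.71 ± 0.038, adjusted p = 1.17e-05), PDIA6 fell by 0.74 (adjusted p = 0.0542 with the untreated libraries in the fit), and ATF6, a sensor of the pathway, by 0.48. XBP1, its spliced transcription factor, was at 372, 364 and 355 and 384, 395 and 399, a rise of 0.11 that was -0.51 as deposited and was not called at equal sums of FPKM (adjusted p = 0.348). In the cytosol, 10 of 14 subunits of the chaperonin TRiC and of prefoldin, which fold actin and tubulin, rose and 0 fell, with a median of 0.36 (-0.22 as deposited). Of 19 heat shock proteins 7 rose and 4 fell. HSPE1 and HSPD1, the paired chaperonin of mitochondria, rose by 0.90 and 0.49 (0.33 and -0.12 as deposited), and HSP90AB1, the constitutive HSP90, by 0.57 (-0.043 as deposited). The stress-induced HSP90AA1 was at -0.12 (adjusted p = 0.157), and BAG3, a co-chaperone induced by heat shock factor, fell by 0.55.

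Targets of ATF4, the factor of the amino acid and integrated stress responses, changed in both directions. Of 18 tested, 8 rose and 7 fell. ATF4 was at 75.1, 79.96 and 78.3 in H/R and 125, 124 and 113 in GA+H/R (log2 change 0.63 ± 0.05, adjusted p = 1.02e-04; 0.014 as deposited), against 25.4, 17.9 and 14.3 in untreated cells, and DDIT3 (CHOP) rose by 0.43 (-0.039 as deposited). Among amino acid carriers, SLC7A1 fell from 21.5, 22.8 and 23.2 to 10.3, 10.3 and 10.9 (log2 change -1.03 ± 0.073, adjusted p = 5.29e-05), SLC3A2 by 0.74 and SLC7A5 by 0.64. MTHFD2, SHMT2 and PSAT1, enzymes of serine and one-carbon metabolism, rose by 0.52, 0.498 and 0.40 relative to the median locus and were at -0.092, -0.12 and -0.21 as deposited. ASNS, asparagine synthetase, was at 0.0040 (adjusted p = 0.975). With the untreated libraries in the fit, the calls of SLC7A5 and PSAT1 were lost (adjusted p of 0.0559 and 0.133).

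Genes of the hypoxic response changed in both directions. Of 20 HIF targets and regulators, 5 rose and 9 fell (median -0.037). ADM, the vasodilator adrenomedullin, fell by 0.76, and EGLN3, an oxygen sensor that HIF induces, was at 8.87, 9.802 and 8.27 in H/R and 5.95, 5.84 and 3.14 in GA+H/R (log2 change -0.78 ± 0.21, adjusted p = 0.0208), with adjusted p of 0.0554 and 0.0664 without H/R library 1 or 2. BNIP3, a mitophagy receptor, rose by 0.23 (-0.39 as deposited), and HIF1A itself was at 0.015 (adjusted p = 0.661). Of 19 genes of glycolysis 7 rose and 2 fell. GAPDH was at 3553, 3604 and 3578 and 5515, 5481 and 5282 (log2 change 0.60 ± 0.016, adjusted p = 2.86e-07; -0.018 as deposited), ENO1, enolase, rose by 0.42 (-0.20 as deposited) and the glucose carrier SLC2A1 was at 0.069 (adjusted p = 0.38). The calls of BNIP3, GAPDH and ENO1 were lost with the untreated libraries in the fit (adjusted p of 0.508, 0.0539 and 0.0777).

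Targets of p53 changed in both directions. Of 19 tested, 4 rose and 7 fell. FAS, a death receptor, was at 84.8, 85.003 and 85.5 in H/R and 36.8, 33.8 and 32.6 in GA+H/R (log2 change -1.28 ± 0.057, adjusted p = 4.54e-06), and PLK2, a stress kinase, at 32.5, 33.02 and 39.1 and 16.4, 14.5 and 15.9 (log2 change -1.11 ± 0.093, adjusted p = 1.21e-04). CDKN1A, the inhibitor p21, was at 41.6, 40.5 and 41.4 and 33.1, 33.2 and 34.01 (log2 change -0.29 ± 0.051, adjusted p = 0.00383), MDM2, which degrades p53, at 105, 111 and 108 and 105, 104 and 107 (log2 change -0.039 ± 0.036, adjusted p = 0.427), and CCNG1, cyclin G1, rose by 0.67 (0.047 as deposited). Of 16 genes of the apoptosis machinery 4 rose (25%) and 3 fell (18.8%), near the 20.1% and 21.7% of all loci. CFLAR, which blocks death receptor signalling, was at 39.1, 33.2 and 39.1 and 58.97, 52.2 and 55.4 (log2 change 0.57 ± 0.083, adjusted p = 0.0016; -0.035 as deposited), and BCL2 (-0.024, adjusted p = 0.885) and BCL2L1 (-0.050, adjusted p = 0.721), which protect mitochondria, did not pass.

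Most cytosolic ribosomal protein genes rose relative to the median locus. Of 59 cytosolic ribosomal proteins tested, 56 rose and 0 fell, with a median of 0.72 (0.11 as deposited, where 35 were called higher and 3 lower). RPL24 was at 944, 945 and 938 in H/R and 1815, 1786 and 1831 in GA+H/R (log2 change 0.94 ± 0.013, adjusted p = 1.88e-08), RPL26 rose by 0.94 and RPS3 by 0.85, all of them above their H/R level as deposited too (0.32, 0.32 and 0.23). RPL4 rose by 0.58 but was at -0.032 as deposited. Ribosomal protein genes often have near-identical pseudogenes, and how reads were shared among copies is not given in the sources used here. Of 28 initiation and elongation factors 20 rose and 2 fell (median 0.48, -0.11 as deposited). EIF3F, a subunit of the initiation factor that binds the small ribosomal subunit, was at 592, 578 and 580.0 and 987, 968 and 1001 (log2 change 0.75 ± 0.018, adjusted p = 1.71e-07). EEF1B2, an exchange factor of elongation, rose by 0.76. Of 15 aminoacyl tRNA synthetases 6 rose and 1 fell (median 0.16, -0.44 as deposited).

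**Figure D5:**
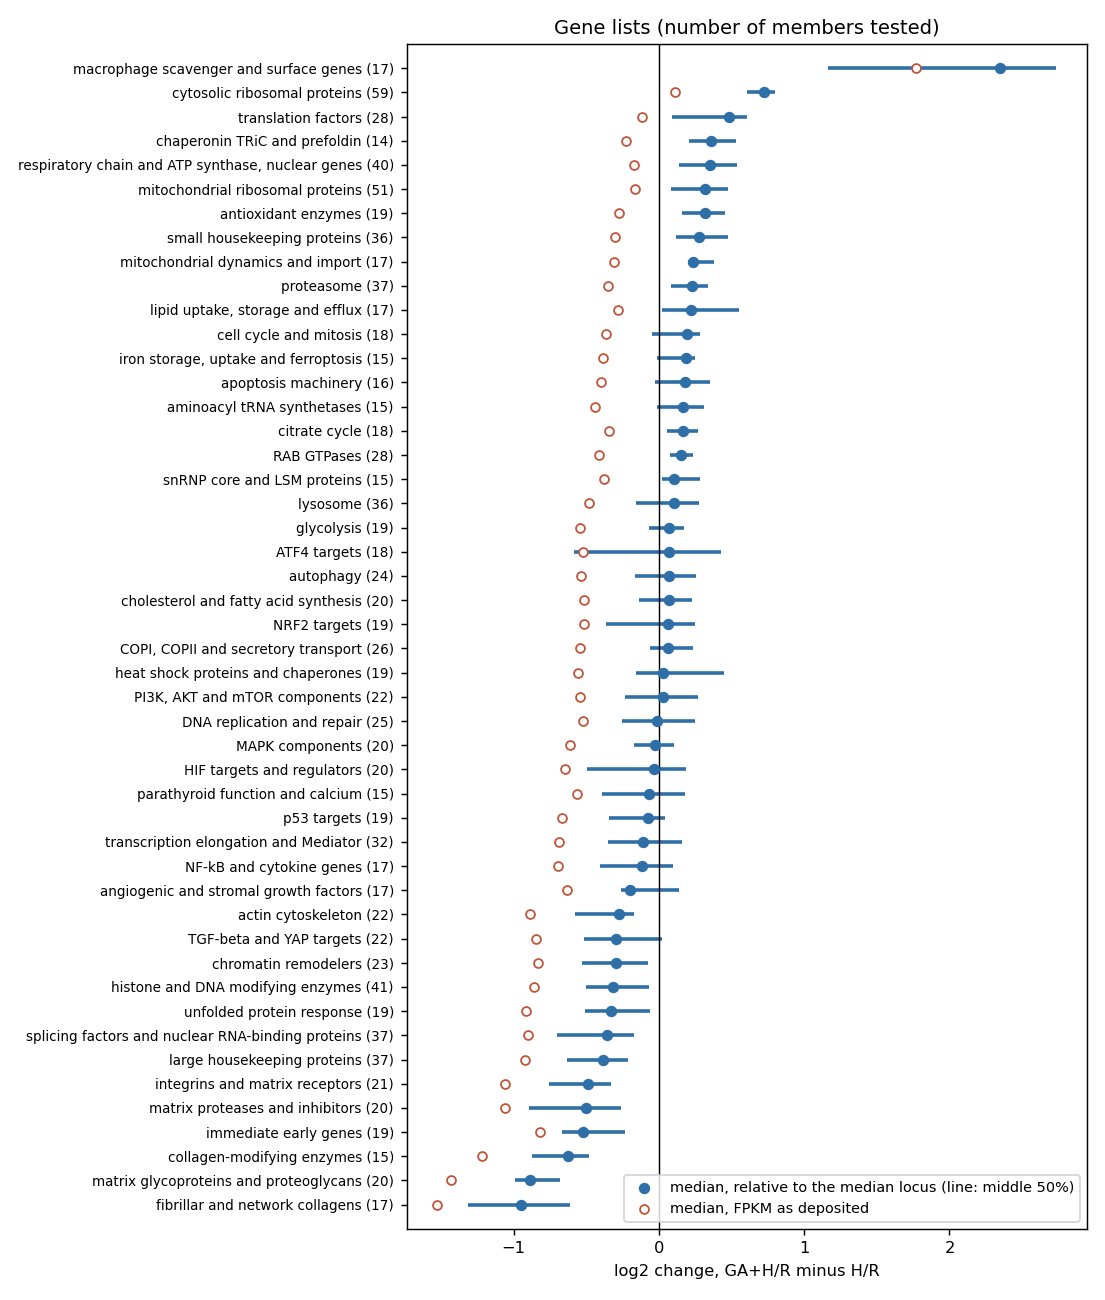
Median log2 change (points) and middle 50% of tested members (lines) of each gene list with at least 14 members tested, relative to the median locus, with open points for the median in the FPKM as deposited. Macrophage genes and cytosolic ribosomal proteins lie above 0 on both scales, collagens, matrix glycoproteins and collagen-modifying enzymes lowest on both, and respiratory chain, translation and antioxidant lists above 0 on the first and below it on the second.

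Many nuclear genes of mitochondria rose relative to the median locus, with list medians that were negative as deposited. Of 40 nuclear genes of the respiratory chain and ATP synthase 25 rose and 0 fell (median 0.35, -0.17 as deposited). NDUFB4, an accessory subunit of complex I, was at 17.4, 17.8 and 15.7 in H/R and 36.8, 33.7 and 29.6 in GA+H/R (log2 change 0.93 ± 0.10, adjusted p = 3.23e-04), and COX4I1, a subunit of cytochrome oxidase, at 133, 133 and 122 and 213, 202 and 197 (log2 change 0.65 ± 0.047, adjusted p = 5.93e-05). NDUFS1, the largest subunit of complex I, was at 19.9, 21.99 and 21.8 and 19.1, 15.7 and 17.7 (log2 change -0.27 ± 0.092, adjusted p = 0.0514), and was called lower when GA+H/R library 1 was left out (adjusted p = 0.0333). Of 51 mitochondrial ribosomal proteins 21 rose and 1 fell (median 0.32, -0.17 as deposited), and of 18 enzymes of the citrate cycle 7 rose and 0 fell (median 0.16, -0.34 as deposited). MDH1, malate dehydrogenase, rose by 0.59 (-0.022 as deposited) and CS, citrate synthase, by 0.23 (-0.39 as deposited).

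Lists of protein breakdown and membrane traffic were read against the 20.1% of all loci called higher and the 21.7% called lower. Of 37 proteasome genes 18 rose and 3 fell (median 0.23, -0.35 as deposited). PSMA3 and PSMB5, subunits of the catalytic core, rose by 0.64 and 0.53 (0.022 and -0.077 as deposited). Of 36 lysosomal genes 12 rose and 6 fell. ATP6V1G1, a subunit of the proton pump, was at 44.7, 41.4 and 39.7 in H/R and 71.9, 68.2 and 62.5 in GA+H/R (log2 change 0.67 ± 0.071, adjusted p = 3.64e-04), and PSAP, the precursor of sphingolipid activators, fell by 0.56. Of 24 autophagy genes 6 rose and 3 fell, near the share over all loci. ULK1, the kinase that starts autophagy, was at 14.3, 13.1 and 16.5 and 7.97, 8.61 and 7.2001 (log2 change -0.81 ± 0.11, adjusted p = 0.00126). Of 28 RAB GTPases, switches of vesicle traffic, 11 rose and 0 fell (median 0.15, -0.41 as deposited), with RAB13 at 81.3, 68.8 and 73.7 and 141, 143 and 132 (log2 change 0.89 ± 0.067, adjusted p = 7.13e-05) and at 9.38, 9.16 and 9.16 in untreated cells.

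Genes of RNA splicing and chromatin fell in most called members. Of 37 splicing factors and nuclear RNA-binding proteins 1 rose and 24 fell (median -0.36). In this list 3 members passed the filter through the H/R libraries only, and of the other 34 members 1 rose and 23 fell. CCNL1, a cyclin of splicing speckles, was at 139, 152 and 144 in H/R and 41.4, 41.4 and 49.99 in GA+H/R (log2 change -1.69 ± 0.08, adjusted p = 6.33e-06), against 367, 227 and 187 in untreated cells. SRSF11, an SR protein, was at 208, 207 and 217 and 94.2, 90.1 and 87.2 (log2 change -1.21 ± 0.039, adjusted p = 7.50e-07), RBM5, a regulator of splice choice, fell by 1.06 and SRRM2, a large scaffold of speckles, by 0.90. SNRNP70, a protein of the U1 particle, fell by 0.83, whereas the core proteins of the particles as a list had 2 rises and 1 fall among 15 tested. Of 41 histone and DNA modifying enzymes 1 rose and 21 fell (median -0.32), and of 23 chromatin remodelers 2 rose and 11 fell (median -0.30). TET2, which oxidises methylcytosine, was at 14.4, 14.1 and 13.98 and 7.93, 8.98 and 6.17 (log2 change -0.82 ± 0.13, adjusted p = 0.00239), the acetyltransferase EP300 fell by 0.502 and EP400, a remodelling ATPase, by 0.89, while SMARCB1, a core subunit of the SWI/SNF complex, rose by 0.77 (0.25 as deposited). OGT, which adds N-acetylglucosamine to nuclear proteins, was among the 15 largest falls, at 229, 240.2 and 234 and 82.5, 83.9 and 85.7 (log2 change -1.47 ± 0.033, adjusted p = 1.16e-07).

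Components of PI3K, AKT and mTOR signalling, which couples growth factors to protein synthesis, had small changes in both directions. Of 22 tested 6 rose (27.3%) and 5 fell (22.7%), with a median of 0.025. These shares lay near the 20.1% and 21.7% of all loci. EIF4EBP1, a repressor of translation that mTOR inactivates, was at 65.7, 64.3 and 69.2 in H/R and 92.9, 92.8 and 101 in GA+H/R (log2 change 0.52 ± 0.051, adjusted p = 2.60e-04; -0.094 as deposited). MTOR itself was at -0.26 (adjusted p = 0.0173; 0.0665 and 0.0561 without H/R library 1 or 3).

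Among the other largest changes, SLC12A1, a sodium, potassium and chloride cotransporter of the kidney, was at 25.4, 27.2 and 25.99 in H/R and 73.9, 78.4 and 75.3 in GA+H/R (a ratio of means of 2.898, adjusted p = 1.39e-06), and at 0.0186, 0.0140 and 0 in untreated cells. GGH, a hydrolase of folate polyglutamates, was at 1.696, 2.38 and 3.03 and 13.5, 15.5 and 9.58 (log2 change 2.03 ± 0.21, adjusted p = 2.95e-04), and PAM16, part of the import motor of mitochondria, at 9.87, 10.9 and 7.68 and 30.4, 40.7 and 42.1 (log2 change 1.88 ± 0.16, adjusted p = 1.37e-04). PAXBP1, a nuclear protein that binds PAX factors, was at 40.2, 36.7 and 38.03 and 11.6, 14.96 and 12.4 (log2 change -1.498 ± 0.10, adjusted p = 3.87e-05), and PPP1R9A, a neuronal scaffold of protein phosphatase and actin, fell by 1.37. The genes of this paragraph were chosen among loci whose groups did not overlap, so their separation is not a further result.

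Genes of calcium handling changed in both directions. Of 15 genes of parathyroid function and calcium tested, 3 rose and 5 fell. ATP2B4, a plasma membrane calcium pump, was at 32.4, 31.7 and 29.999 in H/R and 16.6, 9.18 and 13.1 in GA+H/R (log2 change -1.25 ± 0.18, adjusted p = 0.00173), ATP2A2, the pump of the endoplasmic reticulum, at 191, 179 and 182 and 119, 119 and 132 (log2 change -0.57 ± 0.05, adjusted p = 1.44e-04), and ATP2B1 fell by 0.45. FGFR1, a receptor for fibroblast growth factors, fell by 0.54. PTH1R, the receptor for parathyroid hormone on its target cells, was at 41.1, 42.5 and 45.1 and 57.2, 60.4 and 54.4 (log2 change 0.41 ± 0.061, adjusted p = 0.00186; -0.20 as deposited; adjusted p = 0.167 with the untreated libraries in the fit). With chief cell markers near 0 in all 6 libraries, these values describe the cultures as a whole.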

How the data were processed

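RNA sequencing was done on primary parathyroid cells of the rabbit, and the values are the FPKM of the authors' deposited expression table, 1 column per library, per the file headers; the aligner, quantifier and scaling are not given in the sources used here. Per the submitters' processing notes the builds were GRCm38 and mm10, which are mouse builds, although the table lists rabbit transcripts, and coordinates were left out. The table also holds a deposited p-value and q-value over all 3 groups, which were not used. With no read counts, depth is unknown and precision rests on the 3 libraries of a group.

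Loci at FPKM of at least 1 in at least 3 of the 6 libraries were kept. Libraries were scaled to the median locus, 1 was added, and limma 3.58.1 (R 4.3.3) was fitted to the log2 values (eBayes, trend and robust; two-sided). P-values were adjusted by Benjamini-Hochberg over all 9752 loci, with calls at an adjusted p under 0.05. This procedure was also run on simulated data in which few loci changed, with rises and falls equally likely. In the real libraries 41.7% of loci were called, so the simulation cannot test the choice of the median locus as scale. Named genes were the 15 largest called rises and falls with a single symbol, 10 FPKM or more in the higher group and groups that do not overlap, and up to 4 called members with the largest changes, plus anchors, of 69 lists holding 1643 symbols. Members, lists and tests were chosen with earlier results of these data known, and other members named beside them were chosen after their values were seen. Alternatives covered scaling, pseudocount, filter, libraries in the fit, a replicate block, eBayes settings and leaving out each library. Replicate numbers were taken from the labels. No sequence, transcript length or genome was used. Some genes are not reported here.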

Additional observations from a re-analysis of the deposited data

How the results depend on the processing

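The numbers of called loci, 1958 higher and 2112 lower, stayed within 1.5 times of themselves under every alternative except the FPKM as deposited, which gave 271 higher and 7054 lower; 271 were higher on both scales. They were 1585 and 2144 at equal sums, 2035 and 1949 after quantile normalization, 1768 and 2031 with no filter, 1798 and 1862 with the untreated libraries in the fit, and 1535 to 1784 and 1473 to 1993 without 1 library each. With the share of calls that were higher at 48.1%, equal sums gave 42.5% and the deposited scale 3.7%. The difference in the sum of FPKM kept its sign over loci at 1 or more in all 6 libraries. Of the 201 genes named with a value from the fit, some had the opposite sign as deposited (log2 change in parentheses): AHCY (-0.17), ANGPT1 (-0.059), ANKRD1 (-0.030), ASNS (-0.57), BNIP3 (-0.39), CAT (-0.12), CFLAR (-0.035), CS (-0.39), DDIT3 (-0.039), DDR2 (-0.37), EIF4EBP1 (-0.094), ENO1 (-0.20), FAP (-0.35), FKBP5 (-0.46), FTH1 (-0.23), FTL (-0.14), GAPDH (-0.018), GCLM (-0.52), HIF1A (-0.60), HSP90AB1 (-0.043), HSPD1 (-0.12), ID1 (-0.071), IGF1 (-0.35), LOXL4 (-0.13), MDH1 (-0.022), MTHFD2 (-0.092), NCOA4 (-0.12), NRAS (-0.14), PDPN (-0.29), PRDX1 (-0.57), PSAT1 (-0.21), PSMB5 (-0.077), PTH1R (-0.20), RPL4 (-0.032), SHMT2 (-0.12), SLC2A1 (-0.54), SOD2 (-0.28), SPRY4 (-0.30), TAGLN2 (-0.013), TXN (-0.26), TXN2 (-0.074) and XBP1 (-0.51). The other sign changes were in genes that were not called: under equal sum of FPKM, ASNS and HIF1A were at -0.031 and -0.023; under quantile normalization, HIF1A and PRDX1 were at -0.045 and -0.023. With 1 library left out at a time, the change ranged from -0.031 to 0.067 for ASNS, from -0.098 to 0.054 for BCL2, from -0.13 to 0.012 for BCL2L1, from -0.0026 to 0.037 for HIF1A, from -0.034 to 0.69 for IL1B, from -0.056 to 0.023 for LAPTM5, from -0.17 to 0.095 for SLC40A1 and from -0.051 to 0.00078 for YAP1. With the untreated libraries in the fit, calls were lost for ANKRD1, ATF3, BNIP3, COL15A1, COL4A1, EGLN3, ENO1, FAP, GAPDH, HMOX1, IL6, MSR1, PDIA6, PDPN, PSAT1, PTH1R, SLC7A5, TIMP1, TIMP3 and XBP1 (adjusted p of 0.05002 to 0.508); the cause was not tested.

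Same-numbered H/R and GA+H/R libraries correlated in their deviations from the group means at 0.0026, -0.022 and -0.0054. Of 6 libraries, 1 correlated best with its own number, so no pairing by number showed in these deviations. Whether same-numbered libraries shared an animal or culture is not stated in the labels, and low correlations cannot exclude it. With the replicate number as a block, 1716 loci were called higher and 1892 lower. A correction for protein length was not run, because no lengths were in the sources used here. Depth is unknown, so no limit of detection can be given for loci at 0.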

Other observations

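Several further lists were read in the same fit. Of 11 genes that respond to glucocorticoids, 1 rose and 6 fell, against 20.1% and 21.7% of all loci. SGK1, a kinase of sodium transport, was at 12.96, 18.3 and 16.7 scaled FPKM in H/R and 5.898, 6.58 and 8.36 in GA+H/R (log2 change -1.10 ± 0.16, adjusted p = 0.00169), against 5.404, 4.76 and 4.64 in untreated cells, ZBTB16, a transcriptional repressor, fell by 0.93 and PER1, a clock gene, by 0.71, while FKBP5, a co-chaperone of the receptor, was at 0.13 (adjusted p = 0.172). Of 13 clock genes 1 rose and 5 fell; 1 member of this list passed the filter through the H/R libraries only. ARNTL (BMAL1), the activator of the clock, was at 16.8, 15.2 and 18.4 and 9.83, 13.1 and 10.2 (log2 change -0.57 ± 0.13, adjusted p = 0.0109).

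Enzymes and exporters that handle phenols and catechols, of which 9 were tested, had 2 rises and 4 falls. MAT2A, which makes the methyl donor S-adenosylmethionine, was at 153, 156 and 155 and 105, 98.4 and 107 (log2 change -0.58 ± 0.04, adjusted p = 4.68e-05), the exporter ABCC4 fell by 0.48, and AHCY, which clears the product of methylation, rose by 0.42 (-0.17 as deposited). Of 18 genes of the cell cycle 6 rose and 1 fell. PLK1, a mitotic kinase, was at 3.9003, 5.54 and 3.77 and 1.68, 1.93 and 2.72 (log2 change -0.80 ± 0.17, adjusted p = 0.00958), and CCNB1, a mitotic cyclin, at 1.79, 1.997 and 2.37 and 3.96, 3.52 and 2.94 (log2 change 0.55 ± 0.12, adjusted p = 0.0114). Of 25 genes of DNA replication and repair 3 rose and 4 fell, or 3 and 4 of 23 without 2 members that passed the filter through the H/R libraries only. DNA2, a nuclease of replication and repair, was at 7.75, 6.34 and 6.88 and 21.04, 16.5 and 21.4 (log2 change 1.36 ± 0.13, adjusted p = 1.83e-04), against 0.413, 0.301 and 0.465 in untreated cells, and RRM2, a subunit of ribonucleotide reductase, at 11.5, 10.2 and 15.96 and 4.19, 7.896 and 5.57 (log2 change -0.99 ± 0.23, adjusted p = 0.0124).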
